A study of Homo sapiens with 8 samples.

Results

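The comparison described here sets U2OS cells that carry both Zab and overexpressed MYC, called Zab+MYC below, against WT cells, which have neither. Its members are 4 of the 8 libraries of an RNA-seq study, taken by the genotype in the labels: 2 labelled Zab + MYC O/E and 2 labelled WT. All genes in the tables were compared. U2OS is an established human osteosarcoma line, a bone tumour line of mesenchymal origin. The other 4 libraries are 2 of cells with MYC O/E alone (MYC below) and 2 of cells with Zab alone (Zab below), and they appear only where they show how the cells with both factors differ. No treatment, time or medium is given for any group. The vector, promoter and copy number of either factor, and whether a group is 1 clone or a pool of cells, are not given in the sources used here.

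MYC is a transcription factor that pairs with MAX, binds the E-box sequence in promoters and is best known for driving ribosome production, protein synthesis and nucleotide metabolism. Zab is short for Zαβ, in general use the pair of domains at the start of the RNA-editing enzyme ADAR1 (gene ADAR), of which the alpha domain binds left-handed Z-DNA and Z-RNA. ADAR1 marks the cell's own double-stranded RNA as self, and without it that RNA can set off the interferon response. FACT, made of SUPT16H and SSRP1, is a histone chaperone that takes nucleosomes apart and rebuilds them during transcription.

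Exon tags, the sequenced fragments counted in exons of coding genes, numbered 756377 and 909601 in the WT libraries and 1037216 and 711206 in the Zab+MYC libraries. The share of all tags that fell in such exons was 70.9% ± 0.342 (SD, n = 2) in WT and 69.1% ± 0.129 in Zab+MYC. Whether the 2 libraries of a group are separate cultures is unstated, so the p-values here reflect library-to-library spread alone, possibly of technical origin. The 2 libraries of each group differed by no more than counting noise across genes, with a chi-square per degree of freedom of 1.01 in WT (p = 0.180) and 0.989 in Zab+MYC (p = 0.789), against 3.46 to 18.98 between libraries of different groups. They were kept as 2 libraries because the exon shares differed beyond their 95% Wilson intervals in both groups. The SDs and p-values below therefore hold little beyond counting error.

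The MYC and ADAR rows were higher in both Zab+MYC libraries than in both WT libraries. MYC was at 72.6 and 94.8 CPM (exon tags scaled to a common library size with TMM factors) in the WT libraries and at 707 and 705 in Zab+MYC. Its log2 fold change was 3.06 ± 0.0909 (SE), an 8.33-fold difference (limma, Benjamini-Hochberg adjusted p = 9.3e-42). Transcripts from the introduced and the cells' own MYC gene are not separated in these values.

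The ADAR row, which can hold Zab transcripts as well as the cells' own ADAR, was at 264 and 270 CPM in WT and at 1068 and 1019 in Zab+MYC, a log2 fold change of 1.96 ± 0.0589 (limma adjusted p = 1.4e-41). The transcript that the authors' table keeps for ADAR differed between WT and Zab+MYC, so part of this difference can come from the transcript counted. The MYC row was lower in the cells with both factors than with MYC alone, and the ADAR row lower than with Zab alone. MYC stood at 706 CPM ± 1.27 (SD, n = 2) with both factors and at 1263 ± 37.1 with MYC alone, and ADAR at 1043 ± 34.7 with both and at 6100 ± 138 with Zab alone. On the log2 scale the gaps were -0.84 for MYC (limma adjusted p = 1.3e-11) and -2.55 for ADAR (adjusted p = 7.6e-49). Whether the introduced transcripts themselves were lower cannot be read from these rows. The part of these lower levels in the differences below was not tested.

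The FACT subunits did not pass the test. SUPT16H was at 86.4 and 92.7 CPM in WT and at 107 and 82.9 in Zab+MYC, a log2 difference of 0.07 ± 0.155 (limma adjusted p = 0.738). SSRP1 was at 260 and 203 CPM in WT and at 238 and 240 in Zab+MYC, a log2 difference of 0.06 ± 0.104 (adjusted p = 0.697). The libraries of the 2 groups overlap for both genes. On the authors' own scale SSRP1 was lower by 0.33 on the log2 scale (adjusted p = 0.0061). Of the 26 FACT and other histone chaperones tested, 9 were called higher (34.6%, against 21.6% of all genes) and 4 lower (15.4%, against 20.6%). Their median log2 fold change was 0.10. On the deposited scale 5 were called higher and 12 lower, with a median of -0.28. NPM3, a nucleoplasmin-family chaperone of the nucleolus, rose from 9.46 and 11.7 CPM to 39.9 and 33.3. ASF1B, which hands new histones to assembly factors, fell from 148 and 134 CPM to 68.1 and 69.5 (log2 -1.01 ± 0.177, adjusted p = 2.2e-06).

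Across the 9673 genes that passed the filter on low counts, 4088 differed between Zab+MYC and WT at an adjusted p under 0.05 (42.3%). The calls were split almost evenly, with 2092 genes higher (21.6%) and 1996 lower (20.6%). At least a 2-fold difference was reached by 667 of the higher genes (6.9% of genes tested) and 964 of the lower genes (9.97%). These values are relative to the median gene, which stood at -0.01 on the log2 scale. On the authors' deposited scale the same median was -0.37, and the calls were 1020 higher and 3935 lower, so that 20.6% of calls were higher there against 51.2% here. The summed deposited signal of the Zab+MYC libraries was 0.804 of that of the WT libraries. The sources used here do not state how that scale was set. Their tool lists name the fly build dm6 with no role, and whether the scale rests on an added outside reference was not tested. Every direction below is therefore relative to the median gene. List medians that turn on the deposited scale are named with the list.

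**Figure D1:**
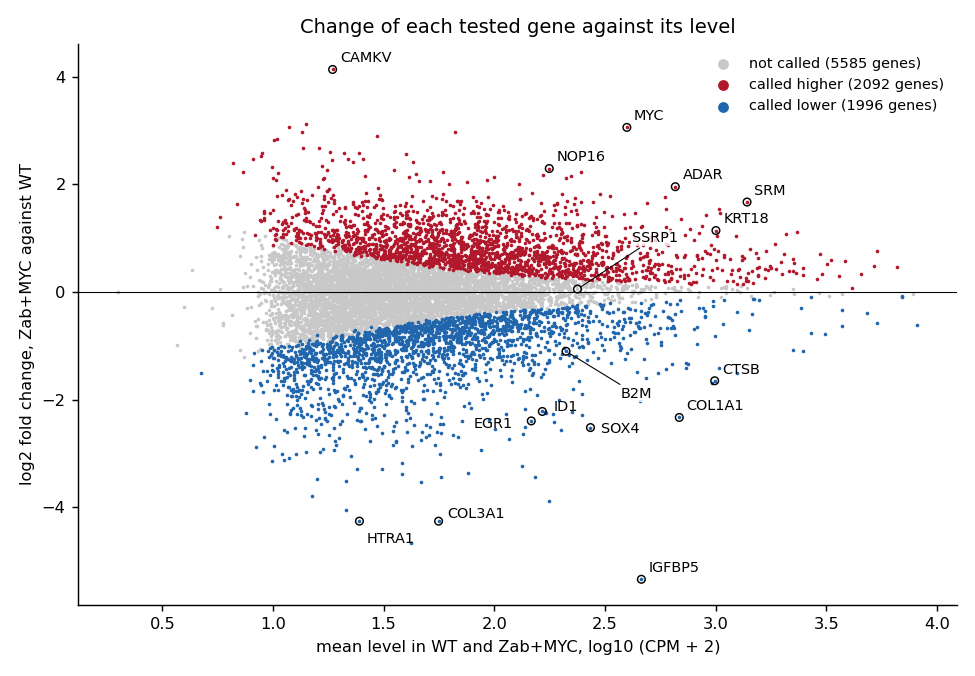
Log2 fold change of Zab+MYC against WT for each of the 9673 genes tested (vertical axis) against the mean level in the 4 libraries on a log10 axis of CPM + 2 (horizontal axis), with genes called higher in red, called lower in blue and not called in grey. MYC (log2 3.06), ADAR (1.96) and the ribosome assembly gene NOP16 (2.30) lie high in the plot, IGFBP5 (-5.33), COL3A1 (-4.26) and HTRA1 (-4.26) lie low, and the FACT subunit SSRP1 lies at 0.06.

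The genes with the largest gains were mostly near silent in WT cells. CAMKV, which encodes a kinase-like protein of neurons, had 0 tags in both WT libraries and stood at 31.6 and 34.7 CPM in Zab+MYC, at least 19-fold higher when the WT group is set to a floor of 3 tags. EPHA8, an ephrin receptor, was at 0 and 2.12 CPM in WT and at 19.95 and 26.2 in Zab+MYC. RGS16, which switches off G-protein signals, went from 2.52 and 8.48 CPM to 52.1 and 46.8. Its log2 change was 2.90, with 2.30 and 3.51 without WT replicate 1 or 2. Values of genes near 0 in 1 group also depend on the pseudocount: CAMKV changed by 4.14 on the log2 scale with 2 CPM added and by 2.93 with 5.

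Several of the genes with the largest losses encode secreted proteins. IGFBP5, a secreted binding protein for insulin-like growth factors (hg19 chr2:217536828-217560272), was at 901 and 894 CPM in WT and at 28.7 and 14.2 in Zab+MYC, 40.4-fold lower (log2 -5.33 ± 0.189, limma adjusted p = 1.8e-37). PODNL1, a small matrix proteoglycan, fell from 72.6 and 85.8 CPM to 0.973 and 1.42. COL3A1, the chain of type III collagen (hg19 chr2:189839099-189877472), fell from 112 and 96.4 CPM to 4.38 and 2.84, 19.1-fold. HTRA1 is a secreted protease and MGP a mineral-binding matrix protein. HTRA1 went from 41.6 and 47.7 CPM to 0.973 and 0, and MGP from 36.6 and 39.7 CPM to 0.973 and 0. PHLDA1, an intracellular protein of growth factor responses, went from 326 and 332 CPM to 16.5 and 25.5. DRD1, the dopamine D1 receptor, was at 22.7 and 29.1 CPM in WT and at 0 tags in both Zab+MYC libraries, at least 15.1-fold lower against a floor of 3 tags over the group. These genes were picked for large changes with no overlap between the libraries, so the gap between WT and Zab+MYC was fixed by that choice.

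The genes of ribosome assembly rose nearly as a block. Of 59 core MYC target genes tested, 53 were called higher and 0 lower, with a median log2 fold change of 1.23 against -0.01 over all genes. Of the 56 genes of the small-subunit processome and its snoRNPs, which cut and fold the precursor of the 18S rRNA, 54 rose and 0 fell, with a median of 1.13. Of the 54 genes of large-subunit assembly and the nucleolus, 52 rose and 0 fell, with a median of 1.25. The lists share members. On the deposited scale the 3 medians were lower, at 0.85, 0.77 and 0.88, and still above 0.

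NOP16, a nucleolar factor of the large subunit, went from 52.99 and 63.04 CPM in WT to 274 and 310 in Zab+MYC, 4.91-fold. RRP9, which binds the U3 snoRNA, went from 34.7 and 35.5 CPM to 168 and 153, and RRP12, an export factor of both pre-subunits, from 32.8 and 34.4 to 153 and 144. NOLC1, a chaperone of snoRNPs, went from 91.5 and 82.6 CPM to 321 and 308 (log2 1.83 ± 0.103, limma adjusted p = 1.2e-25). These 4 genes were picked as the most changed called members of their lists, so the gap between their WT and Zab+MYC libraries was favoured by that choice. NPM1, the abundant nucleolar chaperone, which was chosen after its values were seen, rose less, from 348 and 334 CPM to 586 and 549 (log2 0.73 ± 0.0732).

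The polymerases that make the RNA of the ribosome moved the same way. Of 33 RNA polymerase I and III genes tested, 21 rose and 1 fell, with a median of 0.62. DESeq2 called 11 of them higher, and on the deposited scale 10 were called higher and 5 lower. POLR1B, the second-largest subunit of polymerase I, rose from 24.6 and 28.6 CPM to 98.3 and 83.6. POLR3G, an alternative subunit of polymerase III, rose from 3.79 and 4.24 CPM to 31.6 and 36.1, while POLR3GL, the paralog that takes its place in the enzyme, was the 1 member that fell (log2 -1.35). The POLR3GL call was lost with DESeq2 (adjusted p = 0.141) and without WT replicate 1 (log2 -0.83) or Zab+MYC replicate 1 (log2 -1.20), and the transcript kept for both genes differed between WT and Zab+MYC.

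Genes of protein synthesis rose by smaller amounts. Of 78 cytosolic ribosomal protein genes tested, 51 were called higher and 3 lower, and their median was 0.32. That median turned to -0.07 on the deposited scale, where 17 were called higher and 34 lower. RPL38 was the most changed of them, from 361 and 406 CPM to 874 and 841 (log2 1.16 ± 0.0621), while the 3 called lower, RPL10, RPL15 and RPL3, changed by -0.13, -0.12 and -0.10 and lost their calls with DESeq2, no filter, the 5 CPM filter and without several single libraries (-0.06 to -0.12 there). Counts of ribosomal protein genes are uncertain because pseudogene copies can share their reads. Of 48 translation factors, 37 rose and 4 fell, with a median of 0.54. On the deposited scale 20 of these factors were called higher and 9 lower. EIF6, which keeps the large subunit from joining too early, rose from 85.8 and 84.8 CPM to 252 and 240, and EIF3J, a subunit of the scanning complex, from 42.9 and 65.2 to 152 and 151. EIF4EBP2, an inhibitor of cap-dependent initiation, went the other way, from 105 and 102 CPM to 41.8 and 41.1 (log2 -1.28 ± 0.214, limma adjusted p = 7.9e-07). Of 22 cytosolic aminoacyl-tRNA synthetases, 13 rose and 0 fell (7 rose with DESeq2 and 5 on the deposited scale), led by KARS1, the lysyl enzyme, from 289 and 262 CPM to 625 and 647.

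The mitochondrial arm showed the same order of sizes. Of 81 mitochondrial ribosomal protein genes, 56 rose and 1 fell, with a median of 0.63. DESeq2 called 37 of them higher and the deposited scale 32. MRPS2 rose from 95.9 and 87.9 CPM to 274 and 302, though its transcript differed between the groups. Of 76 nuclear genes of oxidative phosphorylation, 41 rose and 4 fell, with a median of 0.34. On the deposited scale 19 were called higher and 24 lower, and the median turned to -0.05. CYCS, the mobile electron carrier cytochrome c, rose from 74.4 and 76.8 CPM to 188 and 179, and NDUFB9, a subunit of complex I, from 540 and 531 to 1089 and 1009.

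Metabolic lists held calls in both directions, beside 21.6% higher and 20.6% lower among all genes tested. Among 16 polyamine genes, 8 rose (50%) and 3 fell (18.75%), with a median of 0.21 that turned to -0.17 on the deposited scale. SRM, spermidine synthase (hg19 chr1:11114646-11120075), went from 650 and 670 CPM to 2107 and 2109, 3.19-fold (log2 1.67 ± 0.0433, limma adjusted p = 1.5e-45), and ODC1, the entry enzyme of the pathway, from 553 and 555 to 1554 and 1505. Among 37 nucleotide and folate genes, 17 rose (45.9%) and 4 fell (10.8%). NME1, a nucleoside diphosphate kinase, rose from 485 and 494 CPM to 1305 and 1341. TK1, which salvages thymidine in S phase, fell from 64.4 and 98.0 CPM to 38.0 and 28.4 (log2 -1.23 ± 0.249, adjusted p = 3.5e-05). Glycolysis gave 10 higher (45.5%) and 6 lower (27.3%) of 22, with a median of 0.25 that turned to -0.10 on the deposited scale. Of 32 cholesterol and fatty acid genes, 10 rose (31.25%) and 3 fell (9.4%). Their median of 0.23 turned to -0.15 on the deposited scale. FASN, fatty acid synthase, rose from 379 and 338 CPM to 830 and 828, and FADS2, a fatty acid desaturase, fell from 226 and 227 to 121 and 135.

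Chaperone genes rose more often than they fell. Of 42 heat shock and chaperonin genes tested, 27 rose and 3 fell, with a median of 0.56. FKBP4, a cytosolic partner of HSP90, rose from 279 and 253 CPM to 904 and 910, and TRAP1, the mitochondrial HSP90, from 170 and 198 to 505 and 481. The 3 that fell were HSPA5 and HSP90B1, the main chaperones of the endoplasmic reticulum, and the small heat shock protein HSPB1. HSPA5 went from 273 and 281 CPM to 128 and 138, and HSP90B1 from 746 and 744 to 399 and 380 (log2 -0.93 ± 0.0741, limma adjusted p = 5.5e-18). In the list of integrated stress and unfolded protein response genes, 10 of 43 rose (23.3%) and 12 fell (27.9%), close to the 21.6% and 20.6% of all genes. ATF5, a stress-induced transcription factor, went from 39.1 and 34.4 CPM to 110 and 138, and SLC7A5, a transporter of large neutral amino acids, from 82.0 and 99.1 to 292 and 284. DDIT4, an inhibitor of mTORC1, fell from 90.8 and 114 CPM to 26.3 and 34.02.

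**Figure D2:**
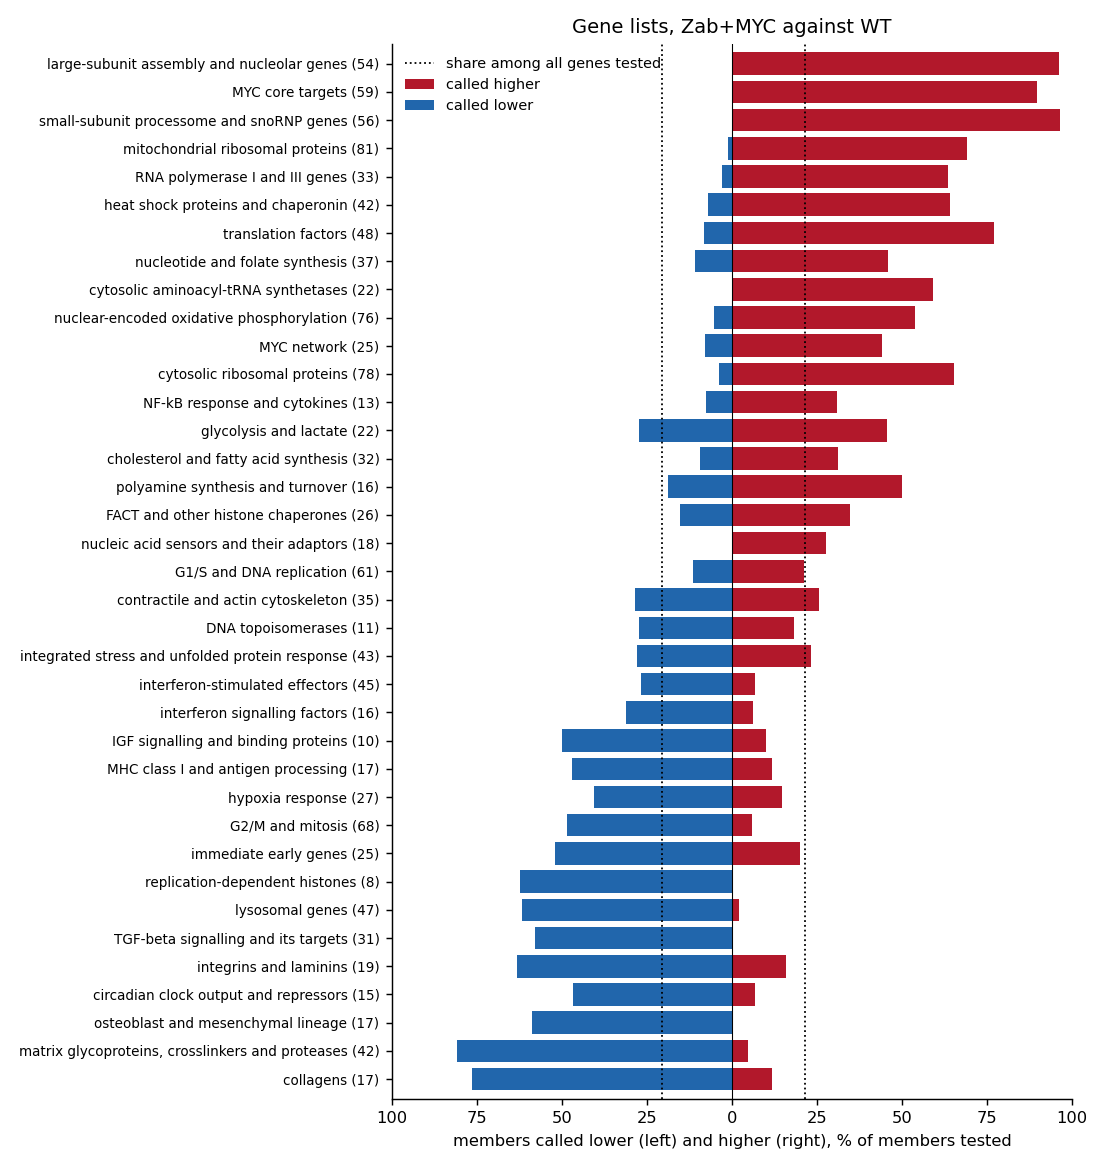
Share of the tested members of each of 37 gene lists called higher (red, right) or lower (blue, left) in Zab+MYC against WT, in percent of members tested, with the number tested in parentheses and the lists ordered by median log2 fold change. Dotted lines mark the shares among all genes, 21.6% higher and 20.6% lower; ribosome assembly lists reach 96.4% and 96.3% higher, and matrix and collagen lists 81.0% and 76.5% lower.

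The promoters of 3 of the genes that rose are shown because they hold the canonical E-box of MYC and MAX, CACGTG, and those of 2 interferon-stimulated genes because they hold copies of a short form of the interferon response element, GAAA followed by any 2 bases and another GAAA. All are RefSeq sequence of build GRCh38.p14, 250 bases up to the base before the annotated start, 5′ to 3′ along the gene, with the matches in capitals. SRM is on the minus strand at chr1:11060019-11060268, ODC1 on the minus strand at chr2:10448013-10448262 and SLC7A5 on the minus strand at chr16:87869508-87869757. ISG15 is on the plus strand at chr1:1013247-1013496 and IFIT1 on the plus strand at chr10:89392373-89392622.
SRM: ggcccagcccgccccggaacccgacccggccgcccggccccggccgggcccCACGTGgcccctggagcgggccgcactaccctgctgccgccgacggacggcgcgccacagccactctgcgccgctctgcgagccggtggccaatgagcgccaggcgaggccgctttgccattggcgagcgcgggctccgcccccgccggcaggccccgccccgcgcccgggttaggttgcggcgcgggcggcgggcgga
ODC1: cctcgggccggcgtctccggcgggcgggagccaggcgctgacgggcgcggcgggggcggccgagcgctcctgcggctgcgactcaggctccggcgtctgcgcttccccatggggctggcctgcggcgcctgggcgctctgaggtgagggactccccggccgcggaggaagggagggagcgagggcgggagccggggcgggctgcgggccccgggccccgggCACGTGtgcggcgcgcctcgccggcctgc
SLC7A5: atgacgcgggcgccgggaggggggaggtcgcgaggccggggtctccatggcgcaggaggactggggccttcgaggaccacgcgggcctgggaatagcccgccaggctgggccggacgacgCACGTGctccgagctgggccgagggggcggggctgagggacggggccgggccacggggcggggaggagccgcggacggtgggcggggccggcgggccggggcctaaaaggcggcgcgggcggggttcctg
ISG15: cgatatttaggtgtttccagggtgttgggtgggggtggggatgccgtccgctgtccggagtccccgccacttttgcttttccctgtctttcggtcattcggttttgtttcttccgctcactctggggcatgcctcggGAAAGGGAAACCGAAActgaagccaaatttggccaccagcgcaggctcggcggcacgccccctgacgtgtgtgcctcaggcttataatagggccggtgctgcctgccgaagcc
IFIT1: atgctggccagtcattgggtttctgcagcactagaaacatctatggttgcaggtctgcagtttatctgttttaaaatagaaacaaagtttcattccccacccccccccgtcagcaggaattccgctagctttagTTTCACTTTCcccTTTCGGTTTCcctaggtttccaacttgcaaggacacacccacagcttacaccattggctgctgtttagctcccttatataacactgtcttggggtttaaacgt
The E-box begins 199 bases before the start in SRM, 29 in ODC1 and 130 in SLC7A5. ODC1 has 2 windows, of which 1 holds an E-box before its start, and the window with the match is shown. In ISG15 the matches begin 113 and 107 bases before the start and overlap, and in IFIT1, where both are read on the opposite strand, 116 and 103.

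Both motifs were searched on both strands in windows from 250 bases before to 50 after each annotated start. Of the 9673 genes tested, 8065 (83.4%) had at least 1 window, and a gene with several starts has several. CACGTG, which is its own reverse complement, was in 9.76% of the 11767 windows of tested genes. It was in 14.3% of the 2395 windows of genes called higher, 6.83% of the 2575 windows of genes called lower and 9.25% of the 6831 windows of genes not called. In the small-subunit processome list 22 of 51 windows held it (43.1%), and in the core MYC target list 29 of 74 (39.2%). It was also in 12 of 49 windows of lysosomal genes (24.5%), a list of which 29 of 47 fell, but only 68.1% of that list had a window, too few for the search to be read. The paired GAAA was in 26 of 48 windows of interferon-stimulated genes (54.2%) and in 2.63% of all windows of tested genes. CGCGCG, an alternating run of the kind that favours Z-DNA, was in 28.1% of windows of genes called higher, 25.6% of those called lower and 27.3% of all. These are counts of letters in a window and no measure of binding or of DNA shape.

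The extracellular matrix programme was low with both factors. Of 17 collagen genes tested, 13 were called lower and 2 higher, with a median log2 fold change of -1.31 against -0.01 over all genes. Of 42 genes of matrix glycoproteins, crosslinkers and proteases, 34 fell and 2 rose, with a median of -1.19. Of 19 integrins and laminins, 12 fell (63.2%) and 3 rose (15.8%), beside 20.6% and 21.6% of all genes, with a median of -0.81. The direction of these medians was the same with every scaling tried.

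COL1A1, a chain of the type I collagen of bone, went from 1094 and 1187 CPM in WT to 219 and 231 in Zab+MYC, 5.02-fold lower (log2 -2.33 ± 0.0812, limma adjusted p = 9.6e-38). COL5A1 went from 105 and 102 CPM to 9.25 and 6.38, and COL6A3 from 92.1 and 92.7 to 14.6 and 12.8. No Zab+MYC library reached a WT library in any of these fibrillar and microfibrillar chains, which were named for their large falls. HAPLN1, which links hyaluronan to proteoglycans, went from 228 and 247 CPM to 28.2 and 19.8. The 2 collagens called higher, COL12A1 and COL27A1, changed by 0.97 and 0.68 on the log2 scale, and neither passed with DESeq2 (adjusted p = 0.052 and 0.105). COL27A1 also missed on the deposited scale (log2 0.31). LAMA1, the alpha 1 laminin chain of basement membranes, was the integrin or laminin gene with the largest rise, from 34.7 and 44.0 CPM to 123 and 123 (log2 1.60 ± 0.161, adjusted p = 1.3e-13).

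Signals that go with the matrix were also lower. Of 31 TGF-beta and BMP signalling genes and targets, 18 fell and 0 rose, with a median of -0.78. ID1, a helix-loop-helix inhibitor that BMP signals induce, went from 261 and 277 CPM to 54.5 and 58.1, and PMEPA1, a feedback inhibitor of TGF-beta, from 727 and 720 to 166 and 190. Of 17 osteoblast and mesenchymal lineage genes, 10 fell and 0 rose, with a median of -0.84, and DESeq2 called 6 of them. RUNX2, the master factor of osteoblasts, was among them at 22.1 and 16.4 CPM in WT and 6.81 and 8.51 in Zab+MYC. It was chosen after its values were seen, and its call was lost with DESeq2 (adjusted p = 0.135) and without WT replicate 1 (log2 -0.92) or Zab+MYC replicate 1 (log2 -0.996). PDGFRB, a growth factor receptor of stromal cells, fell from 37.2 and 30.2 CPM to 8.76 and 9.21. Of 10 insulin-like growth factor genes, 5 fell (50%, against 20.6% of all genes) and 1 rose (10%, against 21.6%). IGFBP7 was at 109 and 126 CPM in WT and 55.0 and 46.1 in Zab+MYC.

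Lysosomal genes fell as a group: 29 of 47 were called lower and 1 higher, with a median of -0.78. DESeq2 called 17 of them lower. CTSB, the protease cathepsin B, went from 1493 and 1503 CPM to 494 and 461, 3.13-fold lower (log2 -1.65 ± 0.0636, limma adjusted p = 3.5e-35). The 1 gene called higher, the protease CTSL, changed by 0.27 (adjusted p = 0.047). It missed the threshold with DESeq2, RLE scaling, library totals, no filter, a pseudocount of 1 CPM, the 4 libraries alone and without WT replicate 1 (log2 0.21) or Zab+MYC replicate 1 (log2 0.11), and turned to -0.11 on the deposited scale.

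Many mitotic genes were lower. Of 68 genes of G2/M and mitosis tested, 33 were called lower and 4 higher, with a median of -0.40. The count of falls was 14 with DESeq2, 58 on the deposited scale, 20 without WT replicate 1 and 20 without Zab+MYC replicate 2. ASPM, which organises spindle poles, went from 161 and 156 CPM to 67.6 and 60.2, and TOP2A, the topoisomerase of mitotic chromosomes, from 397 and 376 to 221 and 211 (log2 -0.83 ± 0.0981, limma adjusted p = 4.1e-11). CDC20, an activator of the anaphase-promoting complex, went the other way, from 549 and 623 CPM to 817 and 759, and did not pass on the deposited scale (log2 0.04). Of 61 G1/S and replication genes, 13 rose (21.3%, against 21.6% of all genes) and 7 fell (11.5%, against 20.6%). Their median was 0.02. On the deposited scale 4 were called higher and 23 lower, with a median of -0.35. CCND2, cyclin D2, rose from 367 and 377 CPM to 825 and 759.

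Of 8 replication-dependent histone genes tested, 5 fell (62.5%, against 20.6% of all genes) and 0 rose. H1-2, a linker histone, went from 1472 and 1452 CPM to 474 and 430. Transcripts of this family lack a poly(A) tail for the most part, so their counts depend on the library method, and the sources used here do not say whether this kit selects poly(A) RNA.

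Of 25 immediate early genes, 13 fell (52%) and 5 rose (20%), beside 20.6% and 21.6% of all genes. The median was -0.42, and DESeq2 called 8 lower. EGR1, a zinc finger factor induced by growth signals, went from 223 and 260 CPM to 29.2 and 66.6, and FOS from 37.2 and 39.2 to 5.84 and 8.51. FOSL1, another member of the FOS family, rose from 54.9 and 47.7 CPM to 131 and 123 (log2 1.28 ± 0.147, limma adjusted p = 1.7e-11). Of 15 circadian output and repressor genes, 7 fell (46.7%) and 1 rose (6.67%), with a median of -0.81. The 1 higher call, PER2, was lost with DESeq2, on the deposited scale and without WT replicate 2 (log2 0.66) or Zab+MYC replicate 1 (log2 0.63). DBP, a clock output factor, went from 362 and 377 CPM to 82.7 and 71.6, and BHLHE41, a clock repressor, from 87.1 and 76.8 to 7.30 and 16.3.

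Interferon-stimulated genes were not raised as a group with both factors. Of 67 listed, 45 were tested, 12 were called lower (26.7%) and 3 higher (6.67%), and the median log2 fold change was -0.30. Among all genes tested 20.6% were called lower and 21.6% higher, so the share of lower calls was near that of all genes. The other 22, among them MX1, IFIT2 and RSAD2, fell under the count filter. Of the 45, 32 also pass the filter in the WT and Zab+MYC libraries alone, and of these 10 were lower and 3 higher. The 12 lower calls became 3 with DESeq2 and between 6 and 7 without WT replicate 1, Zab+MYC replicate 1 or Zab+MYC replicate 2.

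Single genes, chosen after their values were seen, are given as a description. ISG15, a ubiquitin-like effector, was at 55.5 and 54.0 CPM in WT and at 50.1 and 38.3 in Zab+MYC, a log2 difference of -0.31 ± 0.175 that did not pass (limma adjusted p = 0.151). It was at 845 and 906 CPM in the cells with Zab alone. On the deposited scale Zab+MYC was below WT (log2 -0.68, adjusted p = 0.000745). The test of Zab+MYC against Zab gave a log2 difference of -4.26 (adjusted p = 7e-33). IFI6, a mitochondrial interferon-induced protein, was at 3.79 and 6.36 CPM in WT, at 1.46 and 4.25 in Zab+MYC and at 118 and 118 in Zab. OAS3, a sensor that makes oligoadenylates from double-stranded RNA, was at 5.68 and 5.30 CPM in WT, at 4.38 and 2.84 in Zab+MYC and at 73.2 and 70.4 in Zab. Both Zab+MYC libraries lie below both WT libraries for ISG15 and OAS3, and the 2 groups overlap for IFI6. With 2 libraries a group, that order alone does not show a fall. IFI6 and OAS3 passed the filter on low counts only through other groups, so their gap to Zab was fixed by that choice.

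Single genes of the pathway were below WT. STAT2, a signal transducer of interferon receptors, fell from 30.9 and 39.2 CPM to 11.7 and 14.2, and HELZ2, an interferon-induced helicase, from 32.8 and 39.7 to 10.2 and 17.01. IFIT1, which binds foreign capped RNA, was at 12.6 and 12.7 CPM in WT and at 0 and 7.80 in Zab+MYC. Its call rests on Zab+MYC replicate 1: without that library the log2 difference was -0.57 (adjusted p = 0.35), and without replicate 2 it was -2.86. DESeq2 did not call it (adjusted p = 0.069).

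Some members were above WT. TRIM14, an adaptor of antiviral signalling, rose from 24.6 and 29.1 CPM to 60.3 and 61.7 (log2 1.13 ± 0.195, limma adjusted p = 1.5e-06). IFITM3, which blocks viral entry, was at 216 and 217 CPM in WT and 270 and 251 in Zab+MYC (log2 0.26). Its call was lost with DESeq2 (adjusted p = 0.157), with library totals (0.0659) and without Zab+MYC replicate 1 (log2 0.22), and it turned to -0.12 on the deposited scale. Of 18 nucleic acid sensors and adaptors tested, 5 were called higher (27.8%, against 21.6% of all genes) and 0 lower: ADAR, MLKL, ADARB1, CGAS and ZNFX1. The ADAR row can hold Zab transcripts, so its call does not show a rise of the cells' own ADAR. All the others were lost under at least 1 alternative. On the deposited scale 2 members were called higher and 4 lower, with the list's median turning from 0.04 to -0.32. DESeq2 did not call MLKL, ADARB1 or CGAS, and the deposited scale did not call ADARB1, CGAS or ZNFX1. MLKL was also lost without Zab+MYC replicate 1 (log2 0.74), CGAS without WT replicate 2 (0.81) or Zab+MYC replicate 2 (0.99), and ADARB1 without WT replicate 2 (0.996), Zab+MYC replicate 1 (1.01) or Zab+MYC replicate 2 (1.14). DDX58, the RNA sensor RIG-I, was at 20.8 and 11.7 CPM in WT and at 12.7 and 24.1 in Zab+MYC (log2 0.15, adjusted p = 0.75). CGAS, ZNFX1 and DDX58 were chosen after their values were seen.

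Of 17 MHC class I and antigen processing genes, 8 fell (47.1%) and 2 rose (11.8%), beside 20.6% and 21.6% of all genes. Their median was -0.40. B2M, the light chain of every class I molecule, went from 259 and 310 CPM to 154 and 112, and PSME2, a proteasome activator subunit, from 160 and 150 to 84.2 and 71.6. TAP2, a subunit of the peptide transporter, rose from 19.6 and 28.1 CPM to 69.1 and 53.9 (log2 1.31 ± 0.222, limma adjusted p = 1.1e-06). HLA genes are near-identical copies, so their counts are uncertain.

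**Figure D3:**
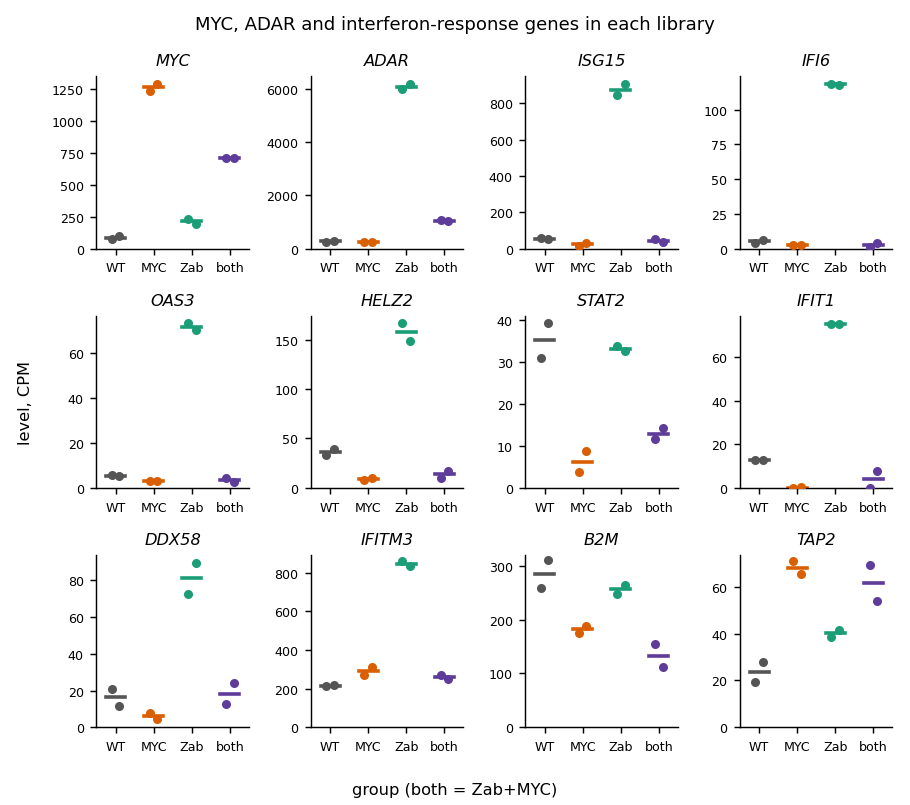
Level in CPM (vertical axes, each from 0) of MYC, ADAR and 10 genes of interferon response and antigen presentation in every library of the 4 groups, where points are libraries and bars the mean of 2. ISG15 stands at 845 and 906 CPM in the Zab libraries and at 50.1 and 38.3 CPM in the cells with both factors.

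The cells with both factors can be set beside the cells with 1 of them, with the reminder that all 3 groups are compared with the same 2 WT libraries. With MYC alone 58.2% of genes were called, 27.8% higher and 30.4% lower, and with Zab alone 24.4%, 13.1% higher and 11.3% lower. The median of the core MYC targets against WT was 1.56 with MYC, 0.61 with Zab and 1.23 with both. For collagens it was -1.94 with MYC, -0.51 with Zab and -1.31 with both, and for lysosomal genes -1.14, -0.19 and -0.78. In these 3 lists the cells with both factors lay between the cells with either factor. For interferon-stimulated genes the medians were -0.54 with MYC, 1.62 with Zab and -0.30 with both. Some of these 45 genes passed the filter only through their level with Zab, and over the 32 that also pass in WT and Zab+MYC the medians were -0.58, 1.10 and -0.26.

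Direct tests between the groups gave the size of the gap. Against MYC alone, 20% of genes differed in the cells with both factors, 11.8% higher and 8.14% lower. Of the 59 core MYC targets 34 were lower and 1 higher than with MYC alone, and of the 42 matrix genes 20 were higher and 0 lower. COL1A1 stood at 225 CPM ± 8.20 (SD, n = 2) with both factors and at 116 ± 9.09 with MYC alone (log2 0.95, limma adjusted p = 9.6e-16). IGFBP5 was at 21.4 CPM ± 10.3 with both and at 13.9 ± 2.82 with MYC alone (log2 0.50, adjusted p = 0.050). Against Zab alone, 26.8% of genes differed, 14.3% higher and 12.5% lower. Of the 32 interferon-stimulated genes that also pass the filter in WT and Zab+MYC, 27 were lower than with Zab alone and 0 higher. The MYC transcript was lower than with MYC alone and the ADAR signal lower than with Zab alone, as given above, and the part of either in these gaps was not tested.

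**Figure D4:**
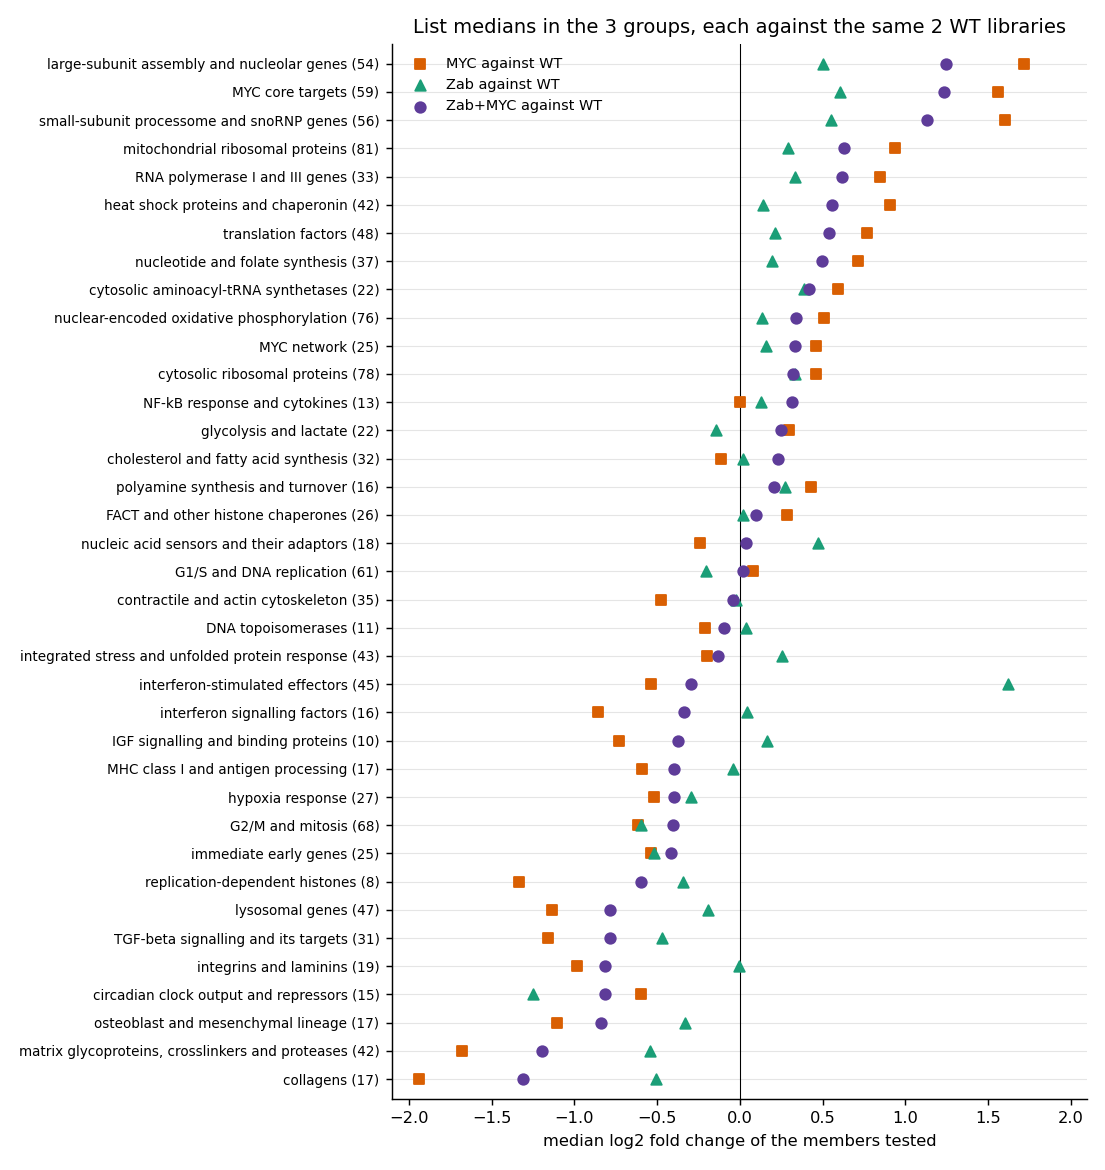
Median log2 fold change of the tested members of 37 gene lists against WT (horizontal axis) in MYC (orange squares), Zab (green triangles) and Zab+MYC (purple circles), all compared with the same 2 WT libraries, with the number of members tested in parentheses. For the core MYC targets and for collagens the purple circle lies between the others (1.23 and -1.31), and for interferon-stimulated effectors it lies at -0.30 with the green triangle at 1.62.

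A small set of genes was higher with both factors than in each other group. At an adjusted p under 0.05 in all 3 comparisons there were 30 such genes (0.31% of genes tested), and 13 were lower than in each other group (0.134%). Each gene passed 3 tests that share the Zab+MYC libraries. TNNT2, the troponin T of heart muscle, was at 11.4 and 10.1 CPM in WT, at 0.934 and 2.38 in MYC, at 11.5 and 7.34 in Zab and at 37.5 and 40.4 with both. MYOF, a membrane repair protein, was at 24.6 and 20.7 CPM in WT, 15.4 and 15.1 with MYC, 22.2 and 20.2 with Zab and 58.4 and 53.9 with both. With MYC alone both genes were at or below the WT level. With both factors no library overlapped those of the other groups, which the choice of these genes favours. SYTL3, a vesicle trafficking protein, was at 19.6 and 14.8 CPM in WT, 31.3 and 34.9 with MYC, 17.2 and 22.0 with Zab and 60.8 and 66.6 with both. ARHGEF28, a guanine exchange factor, rose from 8.83 and 2.65 CPM in WT to 36.0 and 36.1, with a log2 change of 2.42 that moved to 3.04 or 1.82 when WT replicate 1 or 2 was left out.

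KRT18, SFN, KLF5 and KRT15 were among the 30. KRT18, a keratin of simple epithelia (hg19 chr12:53342902-53346690), was at 597 and 650 CPM in WT and at 1395 and 1361 with both factors, while MYC libraries stood at 811 and 838 and Zab libraries at 926 and 805 (log2 against WT 1.14 ± 0.059, limma adjusted p = 8.4e-28). SFN, an epithelial 14-3-3 protein, was at 350 and 362 CPM in WT, 280 and 271 with MYC, 529 and 583 with Zab and 671 and 727 with both. KLF5, an epithelial transcription factor, was at 90.2 and 90.6 CPM in WT and 152 and 174 with both. KRT18, SFN and KLF5 were chosen after their values were seen. KRT15 was at 14.5 and 14.8 CPM in WT and 32.1 and 36.9 with both, a call lost with DESeq2 (adjusted p = 0.102), on the deposited scale (0.0631) and without Zab+MYC replicate 2 (0.088). Not all keratins rose: KRT8, the usual partner of KRT18, fell from 990 and 1015 CPM to 755 and 808, and KRT17 from 799 and 819 to 279 and 291. Both were chosen after their values were seen. Keratin paralogs and pseudogenes are alike in sequence, so these counts are uncertain.

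Among the 13 genes lower than in each other group, ID3, a BMP-induced inhibitor of helix-loop-helix factors, was at 977 and 1123 CPM in WT, 579 and 607 with MYC, 559 and 550 with Zab and 409 and 430 with both (log2 against WT -1.32 ± 0.0674, limma adjusted p = 5.5e-28). TAFA5, a secreted chemokine-like protein, was at 275 and 278 CPM in WT, 35.5 and 38.1 with MYC, 58.8 and 55.1 with Zab and 27.2 and 20.6 with both. CCDC88A, an actin-binding protein of cell migration, was at 172 and 172 CPM in WT, 137 and 125 with MYC, 115 and 144 with Zab and 111 and 76.5 with both. B2M, whose values stand above, was in the set, as was SOX4, a developmental transcription factor, at 487 and 433 CPM in WT and 68.1 and 90.7 with both. SOX4 was chosen after its values were seen. The number of genes higher than in each other group was 16 and 17 without Zab+MYC replicate 1 or 2, and the number lower was 7 without MYC replicate 1 and 22 without Zab+MYC replicate 1.

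**Figure D5:**
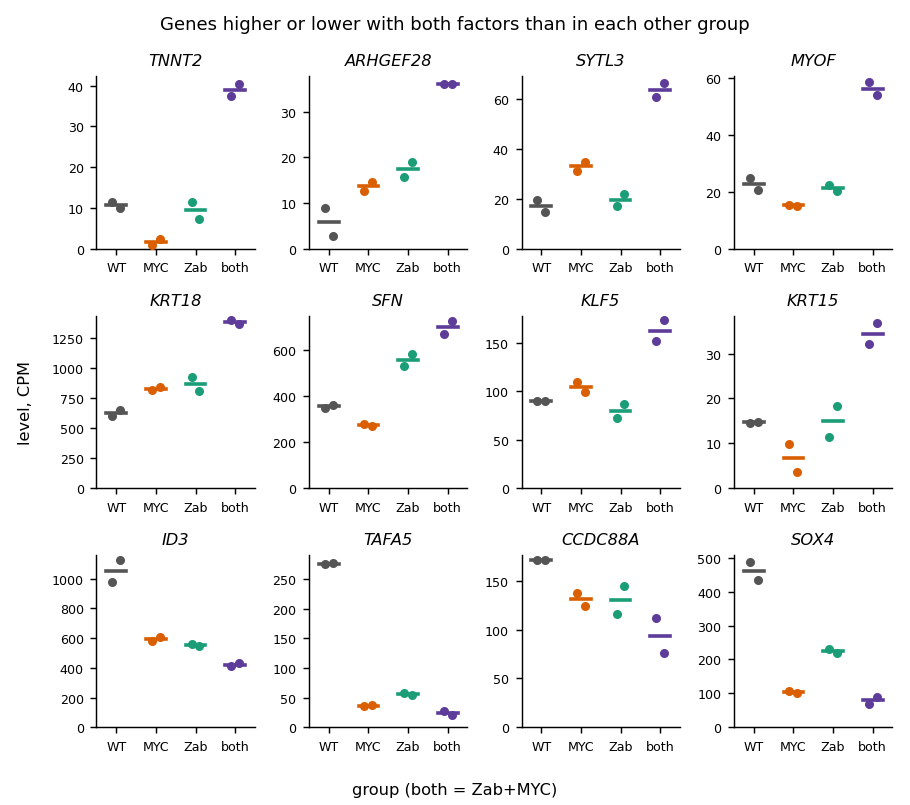
Level in CPM (vertical axes, each from 0) of 8 genes higher and 4 genes lower in Zab+MYC than in each of WT, MYC and Zab, where points are libraries, bars the mean of 2, and "both" is Zab+MYC. TNNT2 stands at 37.5 and 40.4 CPM with both factors and at or under 11.5 CPM in the other 6 libraries, and ID3 at 409 and 430 CPM with at least 550 CPM elsewhere.

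The labelled cell type was checked against its markers. Of 10 mesenchymal and osteoblast markers, 7 were tested and 5 were lower in Zab+MYC. Their summed level was 10776 and 10601 CPM in WT and 7980 and 8095 in Zab+MYC. VIM, the mesenchymal intermediate filament and chosen after its values were seen, was at 7308 and 7030 CPM in WT and 6710 and 6869 in Zab+MYC (log2 -0.08). Its call was lost with DESeq2, no filter, the 5 CPM filter and without WT replicate 1 (log2 -0.04), Zab+MYC replicate 1 or Zab replicate 2 (both log2 -0.05). TWIST1, another marker on the list, had 0 tags in all 4 libraries. Epithelial markers summed to 2423 and 2526 CPM in WT and 2452 and 2485 in Zab+MYC, with 2 members called higher and 3 lower. Of 8 neuronal markers, 2 were tested, 1 higher and 1 lower, and their sum was 245 and 234 CPM in WT and 122 and 106 in Zab+MYC. Markers of blood and of endothelium stayed near 0, with no member tested and summed levels of 6.81 to 13.5 CPM and 6.89 to 10.2 CPM in the 4 libraries. In bulk RNA, fewer cells of a kind and less RNA per cell cannot be told apart.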

How the data were processed

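The 8 libraries are RNA-seq of U2OS cells, made from Trizol RNA by an Abclonal library kit according to the labels' protocols. Trim Galore 0.6.6, STAR (version not given in the sources used here) and HOMER 4.11.1 are named in the submitters' processing notes. The authors deposited 1 table per library with an exon signal per hg19 RefSeq coding gene, made with raw counting over exons and 1 transcript kept per gene, per the file headers. The tool lists also name the fly build dm6 with no role, and the sources used here do not say whether strand was used. Each deposited signal is a whole multiple of 1 step per library within 0.1 step for every value, so tags were recovered as the signal over 2 steps. The 2 steps per tag are an assumption: with 1 step, exon tags would exceed the totals in the headers (121% to 152%).

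Groups came from the genotype label. The main test was limma 3.58.1 on log2(CPM + 2) with TMM factors from edgeR 4.0.16, after edgeR's filter on low counts, over all 8 libraries (4 residual degrees of freedom), with Benjamini-Hochberg adjustment over 9673 genes and a threshold of 0.05. A fold change on that scale understates the change of low genes. edgeR's quasi-likelihood test on the recovered tags called 2076 genes higher and 2096 lower. Alternatives were other scalings, the deposited scale, filters, pseudocounts, DESeq2 1.42.0, a replicate block, genes with 1 transcript throughout, and leaving out each library. The method was also run on simulated counts with a small set of genes changed equally up and down. That simulation cannot judge the scaling under a broad shift. The table keeps the same transcript in the 4 libraries compared for 10511 of 19414 genes (54.1%), and 755 genes switch between WT and Zab+MYC. Of the 105 genes named with values, 70 entered the fit over genes with 1 transcript. A transcript difference is stated above for a few genes only, and others can share it.

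Genes were named by rule: both factors and the FACT subunits, the 10 most changed called genes in each direction with at least 20 tags in the higher group and no overlap, up to 3 called members per list and direction, and the 8 genes most apart from all other groups. Others are said to be chosen after their values were seen. Some genes that the rule names are not reported here. The members and lists were chosen with earlier results of these data known. Intervals cover counting error only.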

Additional observations from a re-analysis of the deposited data

How the results depend on the processing

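The 2092 genes higher and 1996 lower in Zab+MYC than in WT became 1220 and 1060 with DESeq2, 1020 and 3935 on the deposited scale, and 1254 and 1172 over the genes with 1 transcript throughout, where fewer genes were tested. The 667 genes at least 2-fold higher and the 964 at least 2-fold lower became 264 and 1869 on the deposited scale and 366 and 541 over the genes with 1 transcript. The 30 genes higher than in each other group became 9 with DESeq2, 17 on the deposited scale and 16 to 30 when 1 library was left out. The 13 lower became 3 with DESeq2, 79 on the deposited scale, 8 with no filter and 7 to 22 when 1 library was left out. Apart from fewer genes tested, the cause was not tested. On the deposited scale SSRP1 turned to -0.33, IFITM3 to -0.12 and CTSL to -0.11 (log2), and the cause was not tested. Leaving out MYC or Zab libraries was added after seeing the data.

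Of the 105 genes named with values, edgeR, a pseudocount of 5 CPM and the replicate block lost no call, nor did the 70 that could be fitted over genes with 1 transcript. RLE scaling, a pseudocount of 1 CPM and the 4 libraries alone lost 1 call each, which was CTSL, library totals lost 2, the 5 CPM filter 4, no filter 5, the deposited scale 9 and DESeq2 16, and 14 genes lost their call when any 1 library was left out. The deposited scale added 2 calls, ISG15 and SSRP1.

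The replicate number as a block gave 2122 genes higher and 2029 lower and changed no call of a gene named. Deviations of same-numbered WT and Zab+MYC libraries correlated at 0.012 across 7234 genes. The libraries of a group differ by no more than counting noise, so this value cannot show whether libraries were paired. Depth of 711206 to 1037216 exon tags in the 4 libraries limits genes of a few CPM, where 1 tag is about 1 CPM.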
